A study of Homo sapiens with 9 samples.

Results

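Cells given intact PLK2 were compared with cells given PLK2(D223N), whose kinase domain is altered at a single residue. The comparison takes 6 of the 9 libraries of the series, 3 with PLK2 and 3 with PLK2(D223N) by their labels. They were fitted alone, a choice made knowing that the Vector libraries spread widely. All were made from HEK293T cells, an easily transfected line of human embryonic kidney origin that expresses large T antigen of SV40. The labels give its genotype as WT, its cell type as epithelial cells, and the treatments as overexpression of PLK2-FLAG or of PLK2(D223N)-FLAG, so both groups carry a FLAG-tagged construct. The 3 remaining libraries received the FLAG Vector without PLK2. They are outside the main test, and are used to show the empty-vector level and in an alternative fit to all 9 libraries. The 3 libraries of a group are called biological replicates in the series' design text, but how the cultures were separated, the promoter of the constructs and the time after transfection are not stated in these sources. If they share a transfection, the p-values measure only the spread between these samples.

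PLK2 is a serine/threonine kinase of the polo-like family. It has a kinase domain followed by polo boxes that bind partner proteins, and it is known for roles in centriole duplication, for phosphorylating alpha-synuclein and as a gene induced early by growth signals. A kinase-domain mutant keeps the rest of the protein, so a comparison of both forms asks which transcripts differ when the kinase domain is altered. Here the groups also differed in the level of PLK2 RNA, given below. The series title concerns microglial activation through HSP90α and IKKβ, the kinase that frees the transcription factor NF-kB from its inhibitor. Kinase activity, protein levels and phosphorylation were not measured in these data.

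The substitution lies in exon 5 of 14 of the PLK2 transcript. The sequence below is the reference coding strand around it, shown to place the mutation, with the codon of the substituted residue in capitals (GENCODE release 29, GRCh38, chr5:58458098-58458160, minus strand). The reference residue is aspartate, and the codons after it encode phenylalanine and glycine, so it is the first residue of the DFG motif, which in kinases holds the magnesium ion bound to ATP. The sequence of the plasmids was not analysed here.
PLK2 reference codon: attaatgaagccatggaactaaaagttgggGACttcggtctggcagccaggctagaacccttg

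The 6 libraries held between 16014595 and 16215558 estimated counts, and 12810 of the 17083 listed genes passed the filter on low counts. Replicates lay close together. The chi-square per gene between replicates of a group was 1.61 to 2.74, highest for PLK2 replicates 2 and 3, so all pairs differed by more than sampling noise. The biological coefficient of variation, the spread between replicates beyond counting noise, was 2.17%, so that small differences could pass the test. Markers of immune and endothelial cells were low. Of the 16 microglia and macrophage markers 8 were in the table, 7 of them under 1 CPM (counts per 1e6 counts of the library), and their summed level was 3.66 to 3.98 CPM with PLK2 and 2.09 to 3.19 CPM with PLK2(D223N). The label reads "epithelial cells", and markers of that list were mixed. KRT18 was at 42.4 CPM and KRT8 at 19.3 CPM, with EPCAM at 1.83 and CDH1 at 3.47 CPM. CDH2 was at 15.9, PAX2 at 0.414 and the mesenchymal filament gene VIM at 505 CPM. None of the 9 tested epithelial and HEK293 markers passed the test. Summed levels with PLK2 and with PLK2(D223N) were 14.1 to 16.6 and 15.7 to 17.5 CPM for fibroblast markers. Of these COL1A1 was at 9.97 and COL3A1 at 3.74 CPM, and 6 of the 9 in the table were under 1 CPM (COL1A2 at 0 in all 6 libraries). The sums were 2.23 to 2.62 and 2.65 to 2.87 CPM for T and B cell markers (CD79B at 0). For endothelial markers they were 1.06 to 1.55 and 0.987 to 1.25 CPM.

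PLK2 RNA itself was not matched between the groups. It stood at 13980, 10680 and 12420 CPM in the PLK2(D223N) libraries and at 23500, 26240 and 21490 CPM in the PLK2 libraries, against 2.83 to 4.09 CPM with Vector. Every library with intact PLK2 was above every library with the mutant. In the fit to the 6 libraries its log2 difference was 0.94 with an SE of 0.14 (edgeR adjusted p = 0.0498), and the call was lost in 9 of 15 alternative settings with the direction kept. A difference due to the kinase domain and one due to more construct RNA cannot be told apart by this comparison. The other polo-like kinases were less different. PLK1 was higher with PLK2 by 0.26 (SE 0.03), PLK4 was at 0.11 (SE 0.04, adjusted p = 0.0739) and PLK3 at 0.21 (SE 0.20, adjusted p = 0.657), while PLK5 was too low to test. The Vector mean of PLK1, 158 CPM, lay between those with PLK2(D223N), 144 CPM, and with PLK2, 172 CPM.

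Intact PLK2 gave 374 genes higher and 128 genes lower than PLK2(D223N), at an adjusted p below 0.05 by edgeR's quasi-likelihood test. These 502 genes are 3.92% of those tested (2.92% higher and 0.999% lower), and 2180 genes had an unadjusted p below 0.05. Most differences were small. The higher genes had a median log2 fold change of 0.17, with 238 of 374 below 0.2 and 16 at 1 or more. The lower genes had a median of -0.19, with 71 of 128 smaller in size than 0.2 and none at -1 or beyond. Called genes were also abundant, with a median of 105 CPM for the higher and 49.6 CPM for the lower genes against 32.6 CPM for all tested genes. The ranges of the groups stood apart for 362 of the higher and 122 of the lower genes, which the call nearly fixes. The same held for 20.6% of all tested genes. The count depends on single libraries and on the test. It was 181 higher and 42 lower without PLK2 replicate 2, 632 higher and 229 lower without PLK2 replicate 3, and 20 higher and 1 lower when the Vector libraries shared the fit. A test on log2(TPM + 1) called 33 genes higher and 23 lower, so that 58.9% of calls were higher against 74.5%. The median log2 fold change of all genes in that test was -0.05, below that of the main fit.

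**Figure D1:**
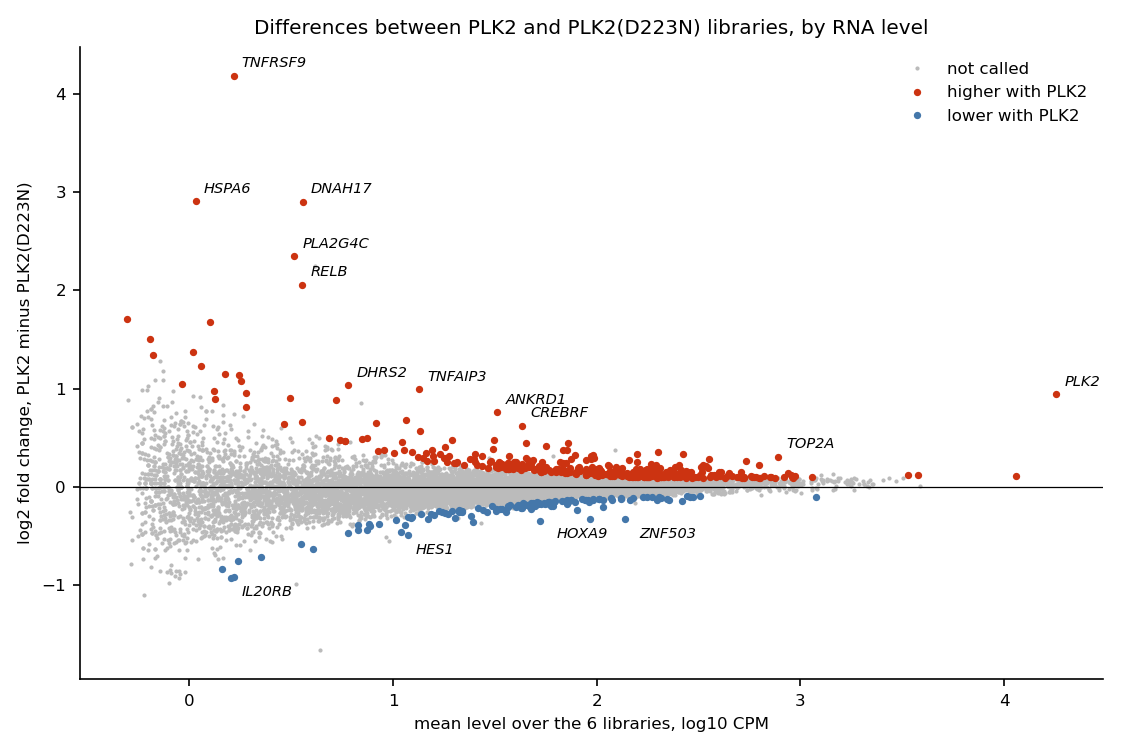
Each point is 1 of the tested genes, with its mean level over the 6 libraries in CPM on a log10 axis and its log2 fold change (PLK2 minus PLK2(D223N)) on the y axis, red and blue where called higher or lower. The large differences, led by TNFRSF9 at 4.18, lie among genes of low level on the higher side, and no called gene on the lower side reaches -1.

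The largest differences at good precision included members of the NF-kB pathway. NF-kB is a family of dimeric transcription factors held in the cytoplasm by inhibitors, and many of its targets are its own subunits and inhibitors, which close a feedback loop. TNFRSF9, a receptor for costimulation also known as 4-1BB, of the TNF receptor superfamily (chromosome 1, 7915894 to 7943165), was at 0.124, 0.185 and 0.184 CPM with PLK2(D223N) and at 3.17, 3.53 and 2.70 CPM with PLK2. Vector libraries were at 0.069 to 0.184 CPM, level with the mutant. It rests on 148 counts over the PLK2 libraries, 8 over the PLK2(D223N) libraries and 7 over the Vector libraries. The ratio of 18.5 has an exact 95% counting interval of 9.14 to 43.6, which covers counting error only, and the fitted log2 fold change was 4.18 (SE 0.34, adjusted p = 3.88e-14).

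RELB, the subunit of the non-canonical NF-kB branch (chromosome 19, 45001430 to 45038198), was at 1.304, 1.54 and 1.29 CPM with PLK2(D223N) and at 5.95, 6.03 and 5.33 CPM with PLK2. Its Vector libraries lay at 1.43 to 1.87 CPM, again on the mutant's side. For RELB the log2 fold change was 2.06 (SE 0.18, adjusted p = 3.38e-13). TNFAIP3 encodes A20, a ubiquitin-editing enzyme that damps NF-kB signalling (chromosome 6, 137867188 to 137883312). It was at 8.51, 9.32 and 8.97 CPM with PLK2(D223N), at 18.9, 16.5 and 18.1 CPM with PLK2 and at 6.90 to 8.33 CPM with Vector. The groups did not overlap, and the log2 fold change was 1.00 (SE 0.09, adjusted p = 3.38e-13).

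Smaller differences, given as log2 fold changes, were found in further pathway genes. NFKB2, the p100 precursor that pairs with RELB, was at 10.3 to 11.4 CPM with PLK2(D223N) and 16.0 to 16.6 CPM with PLK2 (0.57, SE 0.08, adjusted p = 1.93e-06). NFKBIA, the inhibitor IκBα, was at 15.4 to 17.1 and 21.9 to 23.7 CPM (0.47, SE 0.07, adjusted p = 3.83e-06). CYLD, a deubiquitinase that restrains the pathway, rose by 0.33 (SE 0.04), and the subunit REL by 0.22 (SE 0.03). IRF1 rose by 0.37 (SE 0.11, adjusted p = 0.0375) but lost its call when any library other than PLK2 replicate 3 was left out. SOD2, the mitochondrial superoxide dismutase, was called at 0.11 (SE 0.03), and turned to -0.04 on the log2(TPM + 1) scale. On that scale the median of all tested genes was -0.05. The main activating subunit RELA was at 0.00 (SE 0.05, adjusted p = 0.979) and NFKB1 at 0.07 (SE 0.04, adjusted p = 0.434).

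In all, 9 of 30 tested NF-kB targets (30%) were higher with PLK2, against 2.92% of all tested genes. None of the targets was lower and 21 did not pass. The median of the list was 0.05 and 63.3% of its members lay above 0, against a median of -0.0049 and 47.8% of all tested genes. On the log2(TPM + 1) scale the median was -0.01, against -0.05 for all genes tested there, and 4 members were higher. When the Vector libraries shared the fit 6 members were higher. The DESeq2 Wald test called 3 targets higher, of 7 for which it gave an adjusted p. Of 42 NF-kB signalling components 8 (19%) were higher and none lower, with a median of 0.0050. These 8 include the 6 genes TNFAIP3, RELB, CYLD, REL, NFKB2 and NFKBIA that the target list also holds, and the kinase TBK1 and the adaptor TAB2 at 0.13 each. TBK1 lost its call in 10 of 15 alternatives, among them the replicate block and leaving out any library other than PLK2 replicate 3. TAB2 lost it in 8 of 15, among them without replicate 2 or 3 of either group. The DESeq2 Wald test called 2 components, of 25 with an adjusted p, and the test on log2(TPM + 1) called 4. IKBKB, which encodes IKKβ, was at 37.9 to 38.3 CPM with PLK2(D223N) and 35.4 to 38.5 CPM with PLK2 (log2 fold change -0.05, SE 0.05, adjusted p = 0.706). TNFRSF9 was the single called gene of 14 tested TNF receptors. Among chemokine genes CCL5 was tested and not called, at -0.23, and the rest were too low to test. Counts over the PLK2 and the PLK2(D223N) libraries were 13 and 1 for CXCL8, 8 and 3 for CXCL2, 8 and 13 for CXCL3, and 6 and 10 for CXCL10. The remaining ones, CXCL1, CXCL11, CCL2 and CCL20, had at most 2 counts over either group.

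Promoters were read for letters that match the kB element, taken as GGGA or GGGG, any 2 bases and then TTCC, on either strand in the 250 bases before the start (RefSeq, GRCh38.p14). The elements of 2 genes that were higher are shown, with matches in capitals. The NFKBIA stretch is chr14:35404750-35404999 on the minus strand. The TNFAIP3 stretch is chr6:137867188-137867217 on the plus strand and holds the matches 67 and 55 bases before the RefSeq start.
NFKBIA: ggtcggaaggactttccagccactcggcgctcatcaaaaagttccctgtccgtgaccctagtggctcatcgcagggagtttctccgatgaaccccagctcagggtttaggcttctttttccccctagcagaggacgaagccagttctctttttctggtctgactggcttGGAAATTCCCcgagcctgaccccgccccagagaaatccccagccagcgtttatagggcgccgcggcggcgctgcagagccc
TNFAIP3: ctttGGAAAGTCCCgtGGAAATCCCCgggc

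Of the 8 higher NF-kB targets with a promoter in the table, 5 held a match (NFKBIA, TNFAIP3, TNFRSF9, CYLD and REL), as did 34.8% of the 23 tested targets with a promoter. The share was 5.08% of 315 higher genes, 2.02% of 99 lower genes, 3.29% of 10525 tested genes and 2.96% of all 27305 promoters of the same length. The list was composed of known targets, so its share says nothing about the comparison. A match is a description and not a shown site.

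**Figure D2:**
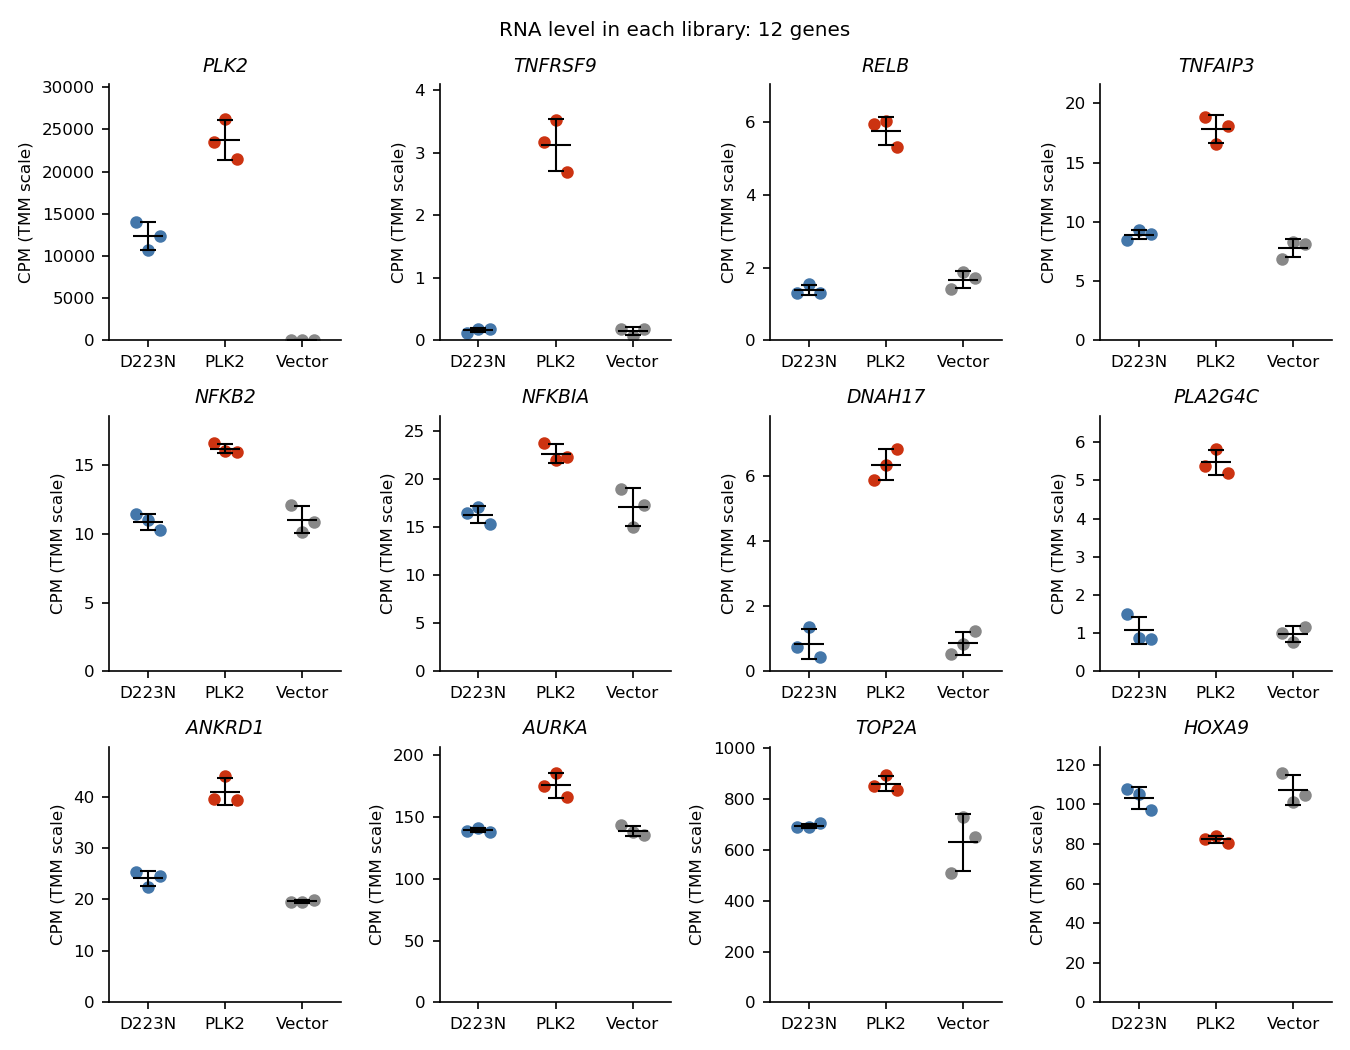
Points are the 3 libraries of each group, in CPM on the scale of all 9 libraries, with mean and SD as bars and a y axis from 0 for each of 12 genes. In each panel except HOXA9 all PLK2 libraries lie above all PLK2(D223N) libraries, and the Vector libraries of TNFRSF9, DNAH17, PLA2G4C and AURKA lie near those of the mutant.

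Genes outside the NF-kB lists also led the higher side. DNAH17, a dynein heavy chain of the axoneme, the motor core of motile cilia and sperm tails (chromosome 17, 78423697 to 78577394), was at 0.745, 1.36 and 0.430 CPM with PLK2(D223N). It was at 5.89, 6.35 and 6.83 CPM with PLK2 and at 0.535 to 1.23 CPM with Vector. The log2 fold change was 2.90 (SE 0.21, adjusted p = 1.30e-15), the smallest adjusted p of all tested genes. DNAH3, of the same family, was at 0.98 (SE 0.28) and lost its call when any library other than PLK2(D223N) replicate 1 was left out. These were the only called genes among 28 of the axonemal dynein and motile cilium list, which had a median of 0.0031.

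PLA2G4C, a membrane-bound member of the cytosolic phospholipases A2, which release fatty acids from phospholipids (chromosome 19, 48047843 to 48110817), was at 1.49, 0.864 and 0.860 CPM with PLK2(D223N). With PLK2 it was at 5.38, 5.83 and 5.20 CPM, and with Vector at 0.763 to 1.17 CPM. The log2 fold change of 2.35 (SE 0.20, adjusted p = 1.61e-13) was the single call among 17 phospholipase and eicosanoid genes. DHRS2, a short-chain dehydrogenase, was at 3.77 to 4.16 CPM with PLK2(D223N) and 7.72 to 8.78 CPM with PLK2 (1.04, SE 0.13). ANKRD1, a cardiac ankyrin repeat protein and a target of the Hippo effector YAP, was at 25.3, 22.4 and 24.6 CPM with PLK2(D223N) and at 39.4, 44.0 and 39.4 CPM with PLK2. Vector libraries were lower than both, at 19.4 to 19.9 CPM. The log2 fold change of ANKRD1 was 0.76 (SE 0.06, adjusted p = 9.16e-15), while SMAD7 and ID3, targets of TGF-beta family signals in the same list of 33 genes, fell by 0.26 and 0.16. SMAD7 was not called without PLK2(D223N) replicate 2, PLK2 replicate 1 or PLK2 replicate 3, nor ID3 without replicate 1 or 2 of either group.

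Other genes at low level completed the top of the list. ZNF80, a zinc finger gene, was at 0.494 to 0.799 and 1.73 to 2.03 CPM (1.67, SE 0.29), and LDHAL6B, a lactate dehydrogenase relative, at 1.37 (SE 0.31). The receptor gene GPR61 was at 1.23 (SE 0.29), the actin binder AVIL at 1.14 (SE 0.24) and NPR3, a clearance receptor of natriuretic peptides, at 1.08 (SE 0.24). TP63, a transcription factor of stratified epithelia, was at 1.23 to 1.36 CPM with PLK2(D223N) and 1.71 to 3.46 CPM with PLK2 (0.95, SE 0.24), and was not called without PLK2 replicate 2 or PLK2(D223N) replicate 3. NPR3 was not called without PLK2(D223N) replicate 3, nor GPR61 without PLK2(D223N) replicate 2. PCDHB13, at 1.15 (SE 0.26), belongs to the tightly related protocadherin beta cluster, so its estimated counts are uncertain. It was not called without PLK2(D223N) replicate 3 or PLK2 replicate 2.

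Genes of G2 and mitosis formed the largest group of called genes. These genes act late in the cell cycle, when chromosomes condense, attach to the spindle and separate. Of 61 tested members 42 (68.9%) were higher with PLK2, against 2.92% of all tested genes. None of the members was lower and 19 did not pass. The median was 0.16, and 95.1% of the members lay above 0, against 47.8% of all tested genes. TOP2A, the topoisomerase that untangles chromosomes (chromosome 17, 40388516 to 40417950), was at 690.1, 692 and 705 CPM with PLK2(D223N) and at 852, 896 and 836 CPM with PLK2. CENPE, a kinetochore motor, was at 232, 239.6 and 233 CPM and at 293, 311 and 284 CPM. These differences, 23.8% of the level for TOP2A and 25.9% for CENPE, were far smaller than those of TNFRSF9 or RELB, yet no libraries overlapped. This gave log2 fold changes of 0.31 (SE 0.03, adjusted p = 3.38e-13) for TOP2A and 0.33 (SE 0.03, adjusted p = 3.38e-13) for CENPE.

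AURKA, the kinase that matures centrosomes and activates PLK1 (chromosome 20, 56369389 to 56392337), was at 139, 141 and 138 CPM with PLK2(D223N) and 175, 186 and 166 CPM with PLK2. Its Vector libraries, at 136 to 143.5 CPM, matched those of the mutant, and the log2 fold change was 0.33 (SE 0.03, adjusted p = 1.76e-11). HJURP, the chaperone that loads the centromeric histone CENP-A, was at 60.2 to 64.4 and 80.2 to 81.3 CPM (0.38, SE 0.04, adjusted p = 4.00e-10). The kinesin KIF18A, which trims spindle microtubules, rose by 0.37 (SE 0.04), and HMMR, a spindle assembly factor, by 0.36 (SE 0.03). The proliferation marker MKI67 rose by 0.23, the checkpoint kinases BUB1 and TTK by 0.17 and 0.18, the APC/C activator CDC20 by 0.21, its ubiquitin-conjugating partner UBE2C by 0.20, and the condensin subunit NCAPD2 by 0.22. CCNB1 (cyclin B1) rose by 0.14 and its kinase CDK1 by 0.11, but CDK1 lost its call in 8 of 15 alternatives, among them 4 of the 6 fits without 1 library (PLK2(D223N) replicates 2 and 3, PLK2 replicates 1 and 2). CDC25B, CCNF and KIF2C were the only members at or below 0, at -0.08, -0.04 and -0.03, and were not called.

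**Figure D3:**
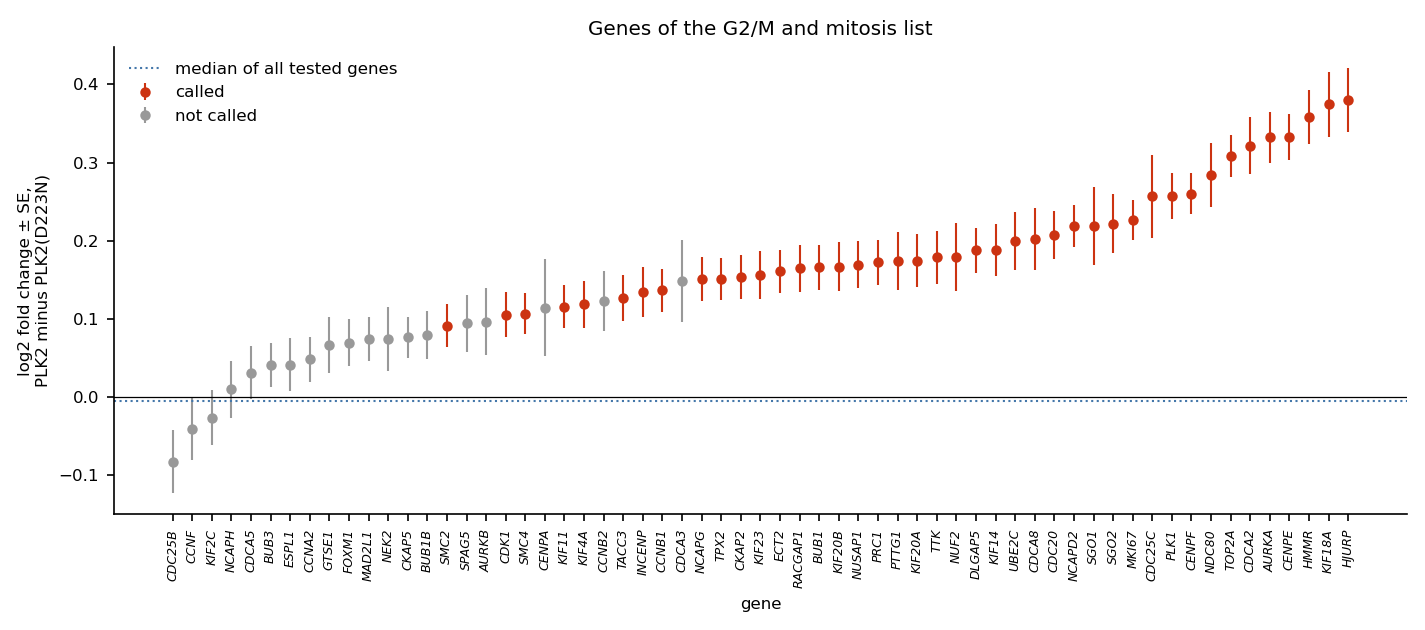
Points are the 61 tested genes of the G2/M and mitosis list in order of log2 fold change (PLK2 minus PLK2(D223N)), with SE as bars and red where called. All 42 called genes lie above 0 and reach 0.38 at HJURP, while the dotted line marks the median of all tested genes at -0.0049.

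The Vector libraries were spread widely for several of these genes. CENPE was at 148, 232 and 203 CPM and TOP2A at 508, 729 and 652 CPM in Vector replicates 1, 2 and 3, so replicate 1 was low for both. The direction of all 502 called genes was kept when the Vector libraries shared the fit, which the same 6 libraries nearly fix in advance. In that fit 2 mitotic genes were called in place of 42. On the log2(TPM + 1) scale 10 were called and the median was 0.11. Without 1 library the count was 35 to 43. The list had a median GC content of 44.2%, below that of all tested genes (48.5%), and after correction for GC content and length 43 members were higher, none lower and the median was 0.14.

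Promoters of mitotic genes are known for the CHR element, bound by the DREAM and MuvB complexes, and for CCAAT boxes bound by NF-Y. The elements were taken as TTTGAA or TTTAAA and as CCAAT, on both strands of the same 250 bases, and CHR and CCAAT matches do not share letters. The stretches below come from 2 called genes. The HMMR stretch, chr5:163460595-163460624 on the plus strand, shows CHR matches in capitals, and TOP2A, chr17:40417951-40418146 on the minus strand, shows CHR and CCAAT matches (RefSeq, GRCh38.p14).
HMMR: gtggggagaTTTGAATTTGAAaccggtagg
TOP2A: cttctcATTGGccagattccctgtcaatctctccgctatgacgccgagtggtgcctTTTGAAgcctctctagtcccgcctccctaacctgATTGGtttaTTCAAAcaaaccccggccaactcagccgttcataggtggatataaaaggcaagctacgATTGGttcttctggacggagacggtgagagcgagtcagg

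A CHR match was present in 27 of the 36 higher mitotic genes with a promoter and in 64.2% of the 53 tested ones. It was present in 27.3% of all higher genes, 20.2% of lower genes, 14.6% of tested genes and 22.3% of all promoters. CCAAT was found in 75% of the higher mitotic genes, 73.6% of the tested ones, 47.3% of all higher genes and 35% of tested genes. These are counts of letters in a window and not of bound factors.

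Of genes of G1/S and DNA replication 3.7% were called, and of centriole genes 7.89%, against 3.92% of all tested genes. Of 54 genes of G1/S and DNA replication 74.1% lay above 0, against 47.8% of all tested genes, and the median was 0.02. The helicase subunit MCM7 and the ribonucleotide reductase subunit RRM1 were the 2 called higher, at 0.09 and 0.10. Leaving out any library other than PLK2 replicate 3 ended both calls. The Vector mean of MCM7, 548 CPM, was nearer PLK2 (544) than PLK2(D223N) (510.0), while that of RRM1, 412 CPM, was nearer PLK2(D223N) (414) than PLK2 (442). Of 38 centriole genes POC5 (0.28, SE 0.06) and STIL (0.11, SE 0.03) were higher and CEP250 (-0.16, SE 0.04) was lower, with a median of 0.01. STIL lost its call in 9 of 15 alternatives, among them the replicate block and leaving out any PLK2(D223N) library or PLK2 replicate 1. CEP250 was not called without replicate 2 of either group. Of 38 DNA damage response genes 5 (13.2%) were higher, against 2.92% of all tested genes, and none was lower. WEE1, which holds back entry into mitosis, rose by 0.17, and BRCA2 and XRCC2, which act in homologous recombination, rose by 0.13 each, while the list's median was 0.02. BRCA2 was not called without PLK2(D223N) replicate 2, nor XRCC2 without PLK2(D223N) replicate 2 or 3. The growth arrest gene GADD45A was higher by 0.34 (SE 0.06), while the cyclin-dependent kinase inhibitor CDKN1A was at 0.11 and was not called.

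Clustered histone genes had the highest median of the lists with at least 5 tested members, at 0.32 over 14 genes. Of these 4 (28.6%) were higher, against 2.92% of all tested genes, and none was lower. The median was 0.17 under the stricter filter, and the DESeq2 Wald test called 1, of 2 with an adjusted p. H3C6 was at 2.96 to 4.53 CPM with PLK2(D223N) and 6.40 to 7.05 CPM with PLK2 (0.89, SE 0.14), and H2BC12 rose by 0.25 (SE 0.04). H2AC18 and H2BC5 were called at 0.46 and 0.49 but not without PLK2 replicate 2, nor for H2AC18 without PLK2(D223N) replicate 3 and for H2BC5 without PLK2(D223N) replicate 2. Histone genes have near-identical copies and most of their transcripts lack the poly(A) tail that the library preparation selects, so these values are uncertain.

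Stress genes went in both directions. Of 42 unfolded protein and ATF4 response genes 6 were higher and 5 lower (26.2% called, against 3.92% of all tested genes). The median was -0.02. CREBRF, a regulator of that response (chromosome 5, 173056352 to 173139284), was at 35.1, 33.4 and 33.0 CPM with PLK2(D223N) and at 52.1, 55.7 and 48.6 CPM with PLK2 (0.62, SE 0.05, adjusted p = 1.61e-13). PPP1R15A, which directs the phosphatase that reverses the eIF2α block on translation, was at 57.8 to 63.9 and 77.2 to 90.9 CPM (0.44, SE 0.05, adjusted p = 8.42e-08). The transcription factor DDIT3 rose by 0.31 (SE 0.08) and was not called without PLK2 replicate 2. SLC3A2 rose by 0.17 (SE 0.03) and was called without each single library. ATF6 rose by 0.15 (SE 0.04) but lost its call when any library other than PLK2(D223N) replicate 1 was left out. The lower genes were chaperones and folding enzymes of the endoplasmic reticulum (HSPA5 at -0.10, HYOU1 at -0.09 and PDIA4 at -0.14), and TRIB3 (-0.31) and STC2 (-0.20). Most of these calls depended on single libraries. TRIB3 lost its call when any library other than PLK2 replicate 2 was left out, HYOU1 when any other than PLK2 replicate 3 was, and HSPA5 without PLK2(D223N) replicate 2 or 3 or PLK2 replicate 1. STC2 lost it without PLK2(D223N) replicate 3 or PLK2 replicate 2, and the replicate block ended the calls of HYOU1 and HSPA5. PDIA4 was called without each single library.

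Of 31 heat shock genes 2 were higher and 2 lower (12.9% called, against 3.92% of all tested genes). HSPA6, an HSP70 that is silent until strong stress, was at 0.186, 0.062 and 0.492 CPM with PLK2(D223N) and at 1.33, 2.05 and 2.32 CPM with PLK2. It rests on 90 counts against 12 (ratio 7.49, exact 95% counting interval 4.09 to 15.04), and its copy HSPA7 is near-identical, so the assignment is uncertain. HSPA13 rose by 0.16, and DNAJB2 (-0.31) and HSPA5 fell. DNAJB2 lost its call whichever of the 6 libraries was left out, and also with GC content and length trends removed. HSP90AA1, which encodes HSP90α, was at 3578, 3628 and 3730 CPM with PLK2(D223N) and 3930, 4101 and 3837 CPM with PLK2. The libraries did not overlap, but the difference was 0.12 (SE 0.03, adjusted p = 0.0109) and the call was lost in 7 of 15 alternatives, among them those without replicate 1 or 2 of either group. HSP90AB1 was at 0.07 (SE 0.03, adjusted p = 0.145), and the remaining 22 tested HSP90 chaperones and co-chaperones did not pass.

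Receptors and carriers of selective autophagy, which link ubiquitinated cargo to the autophagosome, were among the higher genes. SQSTM1 (p62) was at 166 to 176 CPM with PLK2(D223N) and 198 to 202 CPM with PLK2 (0.23, SE 0.03, adjusted p = 4.08e-08). NBR1 rose by 0.16, TAX1BP1 by 0.14, OPTN by 0.25 and MAP1LC3B, the LC3 protein that coats the autophagosome, by 0.12. OPTN was not called without PLK2(D223N) replicate 2, nor MAP1LC3B without PLK2(D223N) replicate 2 or 3. They were among the 6 of 41 tested autophagy and lysosome genes (14.6%) that were higher, against 2.92% of all tested genes. None of the list was lower, and its median was 0.05. The NRF2 targets TXNRD1 (0.19, SE 0.03) and MAFG (0.31, SE 0.06) were higher among 26. For TXNRD1 the Vector mean of 337 CPM was nearer PLK2 (352) than PLK2(D223N) (308), and for MAFG that of 33.6 CPM was nearer PLK2(D223N) (33.0) than PLK2 (41.1). Among 79 cytosolic ribosomal protein genes 76 lay above 0 with a median of 0.06, and 5 passed, led by RPL10A at 0.10. That number was 16 with no filter, 9 with GC content and length trends removed, 47 without PLK2 replicate 3, 0 to 2 without any other single library, and 0 on the log2(TPM + 1) scale and with all 9 libraries. Splicing factor genes had 4 of 47 higher, among them the RNA helicase DDX5 at 0.12, and ribosome biogenesis genes 3 of 38, among them DDX21 and NPM1, beside 2.92% of all tested genes. The splicing count was 12 without PLK2 replicate 3, 1 to 3 without any other single library and 0 with all 9 libraries or on the log2(TPM + 1) scale. The ribosome biogenesis count was 5 without PLK2 replicate 3 and 0 without replicate 1 of either group or PLK2(D223N) replicate 2. Of 126 KRAB zinc finger genes 7 were higher and none lower, with a median of 0.04 and a median GC content of 41.0%.

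The list with most genes lower with PLK2 was that of the HOX genes, the clustered homeobox regulators of position along the body axis. Of 35 tested members 7 (20%) were lower, against 0.999% of all tested genes. None of the members was higher and 28 did not pass. The median was -0.18 and 5.71% lay above 0, against 47.8% of all tested genes. HOXA9 (chromosome 7, 27162435 to 27175180) was at 108, 105 and 96.9 CPM with PLK2(D223N) and at 82.5, 84.0 and 80.7 CPM with PLK2, against 101 to 116 CPM with Vector. The groups did not overlap and the log2 fold change was -0.33 (SE 0.04, adjusted p = 6.50e-09). HOXB6 (chromosome 17, 48595751 to 48604992) was at 27.9, 28.1 and 27.8 CPM and at 20.6, 21.8 and 22.8 CPM, with Vector at 25.4 to 26.7 CPM (-0.36, SE 0.06, adjusted p = 8.03e-05). HOXA10, HOXA11, HOXA13, HOXB3 and HOXB9 fell by 0.17 to 0.25, and all called members belong to the HOXA and HOXB clusters. Each of these 5 lost its call without at least 1 library, HOXB9 without replicate 1 or 2 of either group. After correction for GC content and length 8 were lower and the median was -0.16. With the Vector libraries in the fit 1 was lower, by the DESeq2 Wald test 2 of 9 with an adjusted p, on the log2(TPM + 1) scale 2, and without 1 library 4 to 8, with 4 without PLK2 replicate 1.

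Notch signalling, in which ligands on neighbouring cells release a transcription activator from the receptor, had 3 of 22 tested genes lower and none higher. The 3 genes are 13.6% of the list, against 0.999% of all tested genes called lower. HES1, a repressor and the best known Notch target (chromosome 3, 194136145 to 194138732), was at 14.9, 13.2 and 13.3 CPM with PLK2(D223N) and at 9.56, 9.68 and 10.2 CPM with PLK2, against 11.9 to 14.3 CPM with Vector. Its log2 fold change was -0.49 (SE 0.09, adjusted p = 0.000173). The ligand JAG2 fell by 0.39 (SE 0.09) and was not called without PLK2 replicate 2, and the target HEY1 fell by 0.13 (SE 0.03). The receptors NOTCH1, NOTCH2 and NOTCH3 were at -0.13, -0.01 and -0.16 and were not called. The median of the list was -0.10 and its median GC content was 59.4%.

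Further transcription regulators were lower. ZNF503, a zinc finger repressor, was at 148 to 164 CPM with PLK2(D223N) and 117 to 127 CPM with PLK2, the smallest adjusted p on the lower side (-0.33, SE 0.04, adjusted p = 1.37e-09). NAB2, a corepressor of EGR proteins, fell by 0.46 (SE 0.09), and the stress factor ATF3 was at 80.9 to 91.0 and 71.3 to 74.8 CPM (-0.23, SE 0.04). For ATF3 the Vector level of 57.3 to 69.1 CPM lay below both groups. EGR1 itself was at -0.13 (SE 0.13, adjusted p = 0.674). Among 32 immediate-early genes ATF3 and IER2 were lower and FOSL2 and BTG1 higher (12.5% called, against 3.92% of all tested genes). ATF3 was called without each single library, and IER2, FOSL2 and BTG1 each lost their call in 3 of those 6 fits. HDAC11 was at -0.47 and lost its call without replicate 1 or 2 of either group. GRHL1 was at -0.38 and was called without PLK2(D223N) replicate 2 but without no other single library.

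The largest differences on the lower side were in genes at low level. IL20RB, a receptor subunit for cytokines of the IL-20 family, was at 1.98 to 2.40 and 1.01 to 1.35 CPM (-0.92, SE 0.24, adjusted p = 0.0156), and was not called without PLK2(D223N) replicate 3 or PLK2 replicate 1. TIAF1, at -0.93 (SE 0.26), overlaps MYO18A, so its counts are uncertain. OSBPL7, TMEM100, PRRT4 and SOGA3 ranged from -0.84 to -0.58 and each lost its call without several libraries. The Vector mean of IL20RB, 1.89 CPM, lay nearer PLK2(D223N) (2.16) than PLK2 (1.14). It lay nearer PLK2 for TIAF1 (Vector 1.307, PLK2 1.095, PLK2(D223N) 2.101 CPM), OSBPL7 (1.90, 1.71 and 2.80) and PRRT4 (1.46, 1.29 and 2.18). The same held for SOGA3 (3.32, 2.83 and 4.24). For TMEM100 the Vector mean of 0.80 CPM was below both (1.035 and 1.853). The metabolic regulators PFKFB4 (-0.40) and PFKFB3 (-0.17), which set the level of an activator of glycolysis, were the called members among 36 glycolysis and hypoxia genes, whose median was -0.04. With GC content and length trends removed, and by the DESeq2 Wald test, no member was called. PFKFB3 lost its call without PLK2(D223N) replicate 3 or PLK2 replicate 1 or 2, and PFKFB4 without replicate 2 of either group or PLK2(D223N) replicate 3. In lipid synthesis ACACA and FASN fell by 0.11 and 0.10, as did SCAP by 0.16. ACACA and FASN lost their calls when any library other than PLK2 replicate 3 was left out, SCAP without 4 of the 6 (PLK2(D223N) replicates 1 and 3, PLK2 replicates 1 and 2), and all of them with GC content and length trends removed. Several further lists held 1 or 2 calls, from 1.35% to 11.1% of their tested members, against 3.92% of all tested genes. Counts this small say little about a list. The calls were TARS1 (0.14) among 22 aminoacyl-tRNA synthetases, ATP5PB (0.11) among 74 nuclear oxidative phosphorylation genes and PSMC1 (0.10) among 32 proteasome subunit genes. B2M (0.13) and IRF1 were higher among 35 interferon and antigen presentation genes, DUSP8 (0.46) was higher and NAB2 lower among 20 ERK feedback genes, and NPM1 (0.12) was higher among 9 synucleins and reported PLK2 substrates. Of these TARS1 and NAB2 were called without each single library, and the others lost their call in 3 to 5 of those 6 fits. For PSMC1 the Vector mean was 249.2 CPM, against 249.4 CPM with PLK2 and 232.3 CPM with PLK2(D223N). The lists of SRF and actin genes, Wnt targets, extracellular matrix genes, neuronal genes and amino acid synthesis genes held no called member by edgeR.

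**Figure D4:**
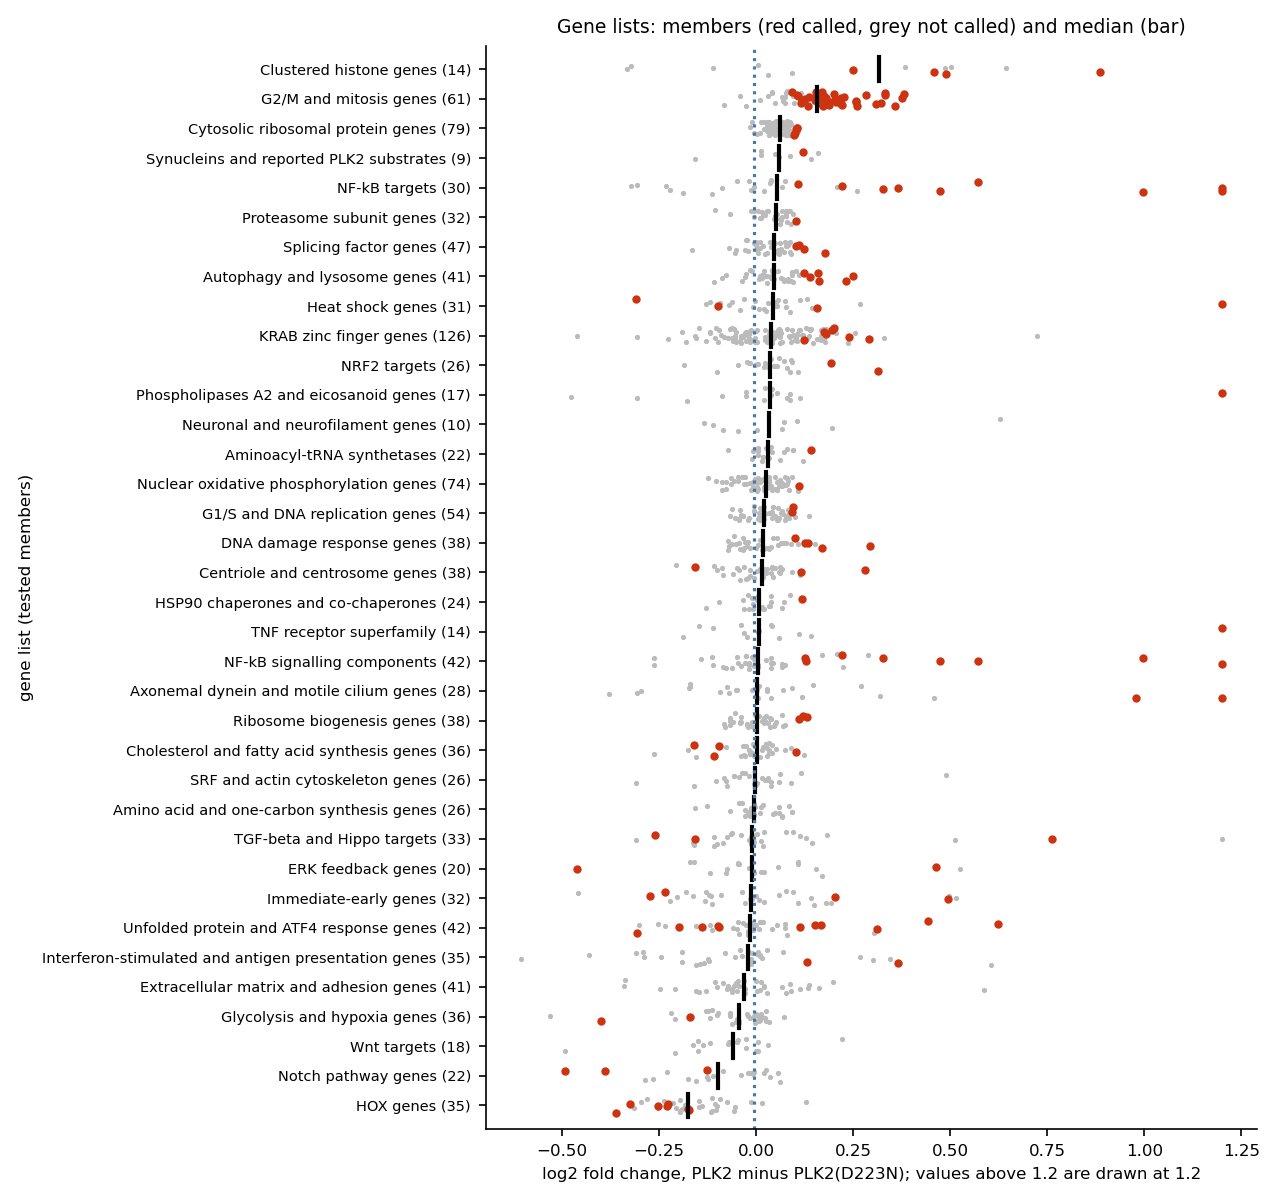
Each row is a gene list with its number of tested members, points are the members' log2 fold changes (PLK2 minus PLK2(D223N), red where called), bars are medians and the dotted line is the median of all tested genes. Medians run from 0.32 for histone genes to -0.18 for HOX genes, and the NF-kB lists show a few members far to the right of medians near 0.

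The difference moved with the GC content of the transcripts. Genes under 40% GC had a median log2 fold change of 0.04, with 6.63% called higher and 0.1% lower. Genes of 60% GC or more had a median of -0.06, with 0.416% called higher and 1.77% lower. The median GC content was 41.6% for the higher, 56.3% for the lower and 48.5% for all tested genes. The step is small beside the leading genes but near the size of many called differences. After loess trends with GC content and length were taken out of each library 317 genes were higher and 62 lower, of which 272 and 53 were also called before.

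**Figure D5:**
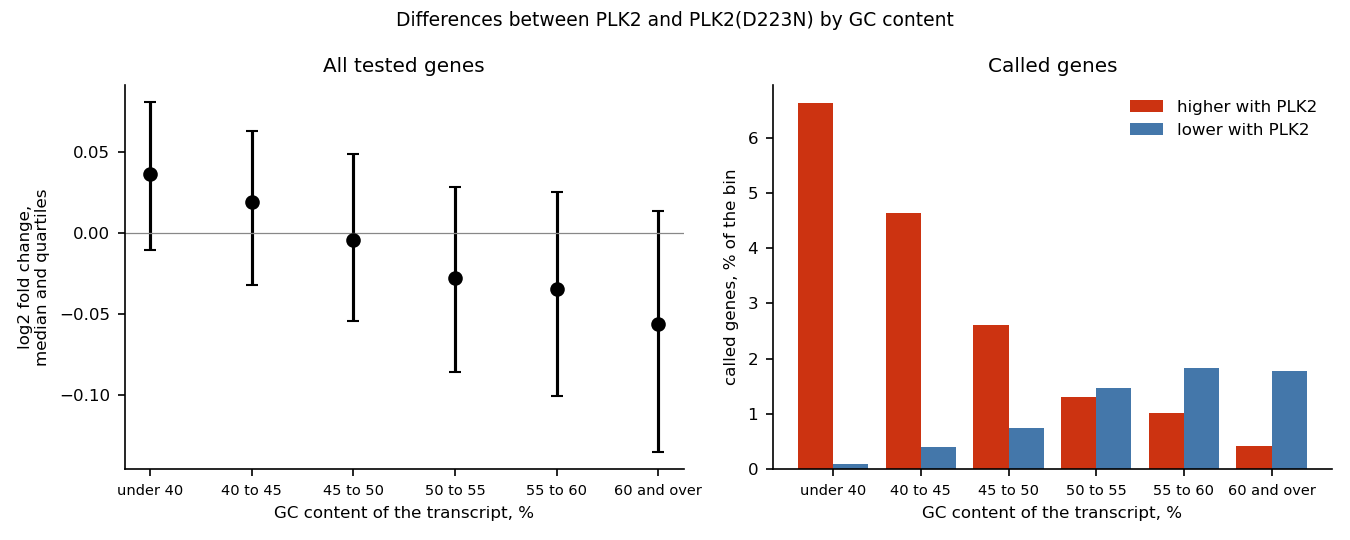
Tested genes are grouped by GC content of the transcript, with the median and quartiles of the log2 fold change on the left and the percentage called in each direction on the right. Medians fall from 0.04 under 40% GC to -0.06 at 60% or more, and the share called higher falls from 6.63% to 0.416%.

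The empty-vector level was set beside each called gene as a description. For 247 of the 374 higher genes the Vector mean lay at or below the PLK2(D223N) mean, for 115 it lay between both forms and for 12 it was above the PLK2 mean. For the 128 lower genes the Vector mean was at or above the PLK2(D223N) mean for 42, between both for 72 and below the PLK2 mean for 14. Over all tested genes the 3 positions held 5897, 3028 and 3885 genes. The direction here is that from the PLK2 mean to the PLK2(D223N) mean.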

How the data were processed

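RNA of 9 HEK293T libraries was enriched for poly(A) transcripts on oligo(dT) beads, per the labels' protocols. Bowtie2, RSEM (1.3.1), DESeq2 (1.4.5) and the build GRCh38.p13 are named in the submitters' processing notes. Which tool did what, the annotation used and strand handling are not given there. The table deposited by the authors holds estimated counts per gene (87.1% to 88.5% within 0.005 of a whole number) and TPM. The deposited TPM served only the alternative test and PLK2. A further 18 columns were not used.

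Estimated counts of the 3 PLK2 and 3 PLK2(D223N) libraries were rounded, filtered with filterByExpr, scaled by TMM and tested in edgeR 4.0.16 (glmQLFit, robust, and glmQLFTest, two-sided, group as the only term). P-values were adjusted by the Benjamini-Hochberg method over 12810 genes, with calls below 0.05. SE is the fold change divided by the root of F. Levels are CPM by TMM over all 9 libraries, and marker sums are CPM without TMM. Totals were 16014595 to 16215558 estimated counts, and intervals cover counting error only. The tests were tried on simulated data.

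The members and the 43 gene lists were chosen with earlier results of these data known. Named genes are the polo-like kinases, HSP90AA1, HSP90AB1 and IKBKB, up to 15 called genes per direction with the largest change (mean of at least 1 CPM, no overlap), and up to 4 called members of each list by p. Others, among them NFKB2, NFKBIA, RELA, HMMR, HJURP, KIF18A, CDC20, TRIB3 and ZNF503, were chosen after their values were seen. Alternatives were DESeq2 size factors, the DESeq2 1.42.0 Wald test, other filters, a replicate block, all 9 libraries, PLK2 removed before scaling, limma 3.58.1 on log2(TPM + 1) with a mean TPM of at least 1, GC content and length trends removed (loess, span 0.3), and each library left out. GC content, length and gene positions came from GENCODE release 29, which gave GC content for 12731 tested genes. R 4.3.3 and Python 3.11.15 were used. No other genome or protein sequence was used here. Some genes, and 1 gene list, are not reported here.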

Additional observations from a re-analysis of the deposited data

How the results depend on the processing

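Against 502 called genes (374 higher, 128 lower), the DESeq2 Wald test called 196 (182 higher, 14 lower) of 7346 genes to which it gave an adjusted p, the fit to all 9 libraries 21 (20 higher, 1 lower) and limma on log2(TPM + 1) 56 (33 higher, 23 lower). With GC content and length trends removed 379 were called, 317 higher and 62 lower. DESeq2 size factors gave 504, no filter 578, the stricter filter 505 and PLK2 removed before scaling 502. Leaving out 1 library gave 181 to 632 genes higher and 42 to 229 lower. The highest of each came without PLK2 replicate 3 and the lowest without PLK2 replicate 2. The cause was not tested. With a replicate block 408 genes were called (312 higher, 96 lower). Libraries with the same number deviated together at r of 0.104, -0.0197 and 0.129. The other pairs ran from -0.207 to 0.105, highest for PLK2 replicate 2 with PLK2(D223N) replicate 1. With 3 libraries per group these values cannot decide whether the numbers pair the samples.

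Of 144 named genes that were called, 143 kept their direction in every alternative that gave a value. The alternatives share libraries with the main fit, so this was nearly fixed in advance. SOD2 was the exception, at -0.0417 on the log2(TPM + 1) scale, where the median of all tested genes was -0.0528. Among all tested genes 8 were called in every alternative, namely ANKRD1, ARRDC3, AURKA, CREBRF, HBP1, HJURP, HOXB6 and PPP1R15A. TNFRSF9, DNAH17, PLA2G4C, RELB and TNFAIP3 were called in each alternative that tested them. Genes under about 1 CPM rest on few counts per library.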

Other observations

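Of the called genes, 254 of the 374 higher and 101 of the 128 lower genes were in none of the gene lists. Among those, and chosen after their values were seen, ARRDC3, an arrestin-domain protein that controls receptor trafficking, was at 35.9 to 39.1 CPM with PLK2(D223N) and 47.7 to 55.6 CPM with PLK2 (log2 fold change 0.45, SE 0.05, adjusted p = 4.92e-09). HBP1, a transcriptional repressor of cell cycle genes, was at 24.96 to 28.4 and 34.1 to 39.8 CPM (0.47, SE 0.06, adjusted p = 8.42e-08). DEPDC1, a gene of dividing cells, was at 313 to 329 and 381 to 394 CPM (0.28, SE 0.03, adjusted p = 9.24e-12). GAS2L3, a linker of actin and microtubules that acts in cytokinesis, was at 7.68 to 9.62 and 12.8 to 15.1 CPM (0.68, SE 0.10). TEX14, known for the intercellular bridges of germ cells and for kinetochores, was at 5.56 to 7.95 and 9.05 to 10.8 CPM (0.65, SE 0.12). On the lower side PCDH7, a protocadherin, was at 113 to 120 and 98.8 to 101 CPM (-0.20, SE 0.03, adjusted p = 7.70e-05).

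Some of the largest fitted differences were not called. MAGED4B was at -1.66 (SE 2.09), EIF3CL at -0.99 (SE 1.07) and SULT1A4 at 0.85 (SE 1.70). Each has a near-identical copy in the genome, between which estimated counts can be split differently from library to library.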
